A study of Mus musculus with 3 samples.

Results

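The SMADs and the Smurf ubiquitin ligases carry and limit the signal of bone morphogenetic proteins (BMPs) inside the cell. The set held 10 genes, namely Smad1, Smad2, Smad3, Smad4, Smad5, Smad6, Smad7, Smad9, Smurf1 and Smurf2, and every probe set that the platform annotation pairs with 1 of them was taken. These were 23 of the 45101 probe sets on the array, and 0 further probe sets were paired with a member together with another gene. The rule for membership was the gene's name and used no value, although earlier results of these data were known when the set was drawn up.

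All samples came from R1, an established mouse embryonic stem cell line, kept undifferentiated. The conditions were BMP4 (20 ng/ml, 4 h), noggin (100 ng/ml, 4 h) and no treatment as the control, for which the labels used here give no time. Noggin is a secreted protein that binds BMPs and blocks their access to receptors. Total RNA of each condition was hybridised to 1 Affymetrix array, so that no value has a replicate error and no test was made. Values are expression values on the log2 scale, so that a 2-fold change adds 1.

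BMP receptors at the cell surface phosphorylate the receptor-activated SMADs Smad1, Smad5 and Smad9, whereas receptors for TGF-beta, activin and Nodal phosphorylate Smad2 and Smad3. Both kinds bind the common Smad4 and enter the nucleus, where the complexes bind DNA at GTCT motifs or GC-rich elements. Smad6 and Smad7 are inhibitory SMADs that are themselves transcribed in response to BMP or TGF-beta, and Smurf1 and Smurf2 are HECT-type E3 ligases that ubiquitinate SMADs and, through the inhibitory SMADs, the receptors. In mouse embryonic stem cells BMP signalling is known for supporting self-renewal together with LIF, through the Id genes.

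With BMP4 the largest difference among the members was that of the inhibitory Smad6, whose value was 1.59-fold above the untreated one. Both probe sets of the other inhibitory gene, Smad7, were higher with BMP4, by 0.34 and 0.13. Of the receptor-activated SMADs, Smad4 and the Smurfs, no probe set differed by 1.5-fold in either direction with BMP4 or with noggin, and the largest difference, 0.34, was that of a Smad5 probe set near the background.

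Promoter sequence is shown first for Smad6, since it was the member with the largest difference. The RefSeq promoter table (build GRCm38.p6) held windows of 250 bases before to 50 bases after the start for 7 of the 10 members. These were 9 windows in all, with Smad5 having 3. Smad2, Smad4 and the other inhibitory gene, Smad7, had no window there, so that their promoters were not searched. On the minus strand at chr9:64022056-64022309, from 250 bases before the start to base 4 after it, the Smad6 sequence reads as follows, with the palindromic SMAD-binding element GTCTAGAC in capitals.
Smad6: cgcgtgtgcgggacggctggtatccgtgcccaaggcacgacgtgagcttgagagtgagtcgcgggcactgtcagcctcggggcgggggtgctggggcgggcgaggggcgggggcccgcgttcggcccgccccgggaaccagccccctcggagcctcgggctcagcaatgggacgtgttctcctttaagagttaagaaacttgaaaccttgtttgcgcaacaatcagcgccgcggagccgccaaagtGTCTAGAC

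The palindrome spans the start, from base −4 to base 4, and contains GTCT on both strands. Another RefSeq model of Smad6 begins upstream of this start. The palindrome was found in 70 of 32851 promoter windows, 0.213%, and in 1 of the 9 member windows. GTCT alone, searched on both strands, was found in 88% of all windows and in 8 of the 9 member windows, so that its presence sets few promoters apart. The Smad1 window, the exception, held neither GTCT nor GGCGCC.

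The GC-rich element GGCGCC, a palindrome that BMP-activated SMADs bind, was present in 11.9% of all windows and in 4 of the 9 member windows. These belonged to 3 genes, Smad5, Smad9 and Smurf2, and the stretches below are shown because they are the member windows with this element. Smad9 was not above the background on any array. The element is in capitals. The stretches lie at chr13:56703021-56703050 (plus strand), chr3:54755519-54755548 (plus strand), chr11:106920932-106920961 and chr11:106920845-106920874 (both minus strand), in this order.
Smad5: ccccggcgagcgGGCGCCgagcgcttgtcc
Smad9: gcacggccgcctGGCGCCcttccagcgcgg
Smurf2, distal: tgccatcgagccGGCGCCgccgggcggtgt
Smurf2, proximal: aggccttcctctGGCGCCccaggcgcagga

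Of the Smad5 windows, 2 overlap and hold the same GGCGCC. The compound BMP-responsive arrangement, GGCGCC with GTCT after a gap of 5 bases, occurred in 24 windows of the table and in 0 member windows. The member windows were rich in G and C, with 63% to 80.3% of bases against a median of 52.7% over all windows. A match to these letters is a description of the window and does not show binding.

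**Figure D1:**
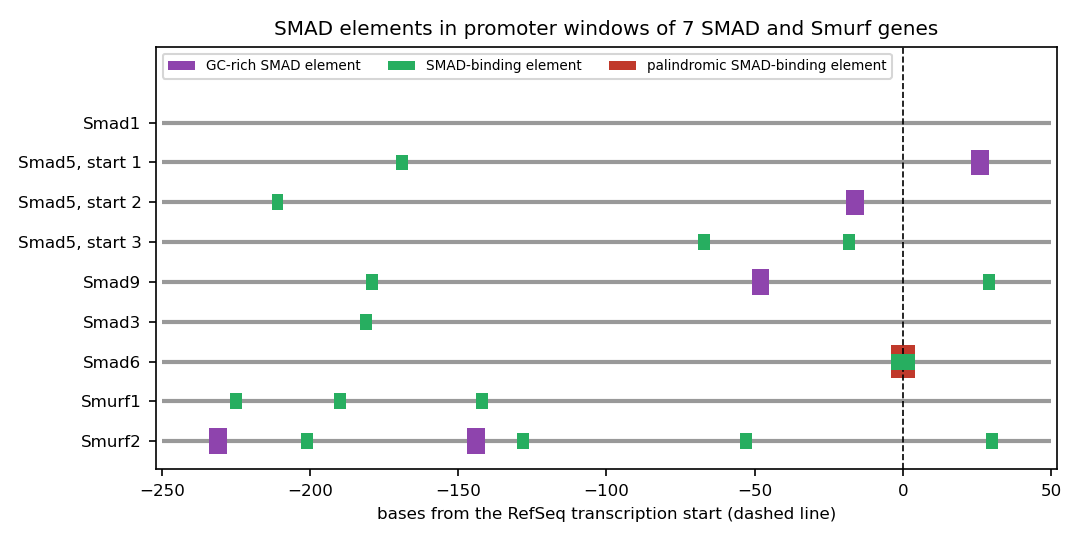
Positions of SMAD elements, in bases from the RefSeq start, in the 9 promoter windows of 7 members; each grey line is 1 window from 250 bases before to 50 bases after the start, and coloured blocks mark matches on either strand. The palindromic element appears in Smad6 alone among these windows, across the start, and GC-rich elements appear in Smad5, Smad9 and Smurf2. Smad2, Smad4 and Smad7 had no window and were not searched.

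Before the members are taken in turn, the arrays as a whole bear on how far a difference can be read. The median of all values, 3.44, was used as a floor, and 11594 genes had a value above it on at least 1 array for the probe set of highest mean, which represents the gene. Of the members, 9 genes and 20 probe sets lay above the floor on at least 1 array. Where a gene had several probe sets above the floor (13666 probe sets, 5139 genes), their differences scattered about the gene mean with an SD of 0.13 for BMP4 minus untreated. That SD was 0.11 for noggin against untreated cells and 0.16 for BMP4 against noggin. Poly-A spike transcripts, added to the RNA before labelling, read lower with BMP4 than without treatment for 24 of 24 probe sets, with a median difference of −0.63. With noggin 23 read lower, with a median of −0.18. Their part in the results was not tested. All 10 embryonic stem cell markers lay above the floor, with medians of 11.16 with BMP4, 11.04 with noggin and 11.08 untreated. Of 8 fibroblast markers 6 were above it, with medians between 3.88 and 3.96, and of 5 endoderm and 4 trophoblast markers 3 and 1 were above it. Of 7 BMP-SMAD response genes (Id1 to Id4, Msx1, Msx2 and Bambi), a list drawn up with earlier results of these data known and therefore no independent check, 5 were at least 1.5-fold higher with BMP4 than untreated, against 0.224% of all genes. The noggin array stood slightly apart from the others in its distribution: the median of all probe sets was 3.43 with noggin, against 3.45 with BMP4 and 3.45 untreated, and the 5th percentile was 1.60 with noggin, against 1.82 with BMP4 and 1.82 untreated. The part of this in the differences that involve noggin was not tested.

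Smad6, which competes with the receptor-activated SMADs of the BMP branch, measured 5.07 with BMP4, 4.40 with noggin and 4.40 untreated on its single probe set. The BMP4 array was high and the other arrays were equal to 6 decimals. The difference of 0.67 placed Smad6 19th from the highest of the 11594 genes for BMP4 minus untreated and 35th for BMP4 minus noggin. In both comparisons it was 1 of 9 members at least 1.5-fold higher, and 0 members were that far lower. Over all genes the share at least 1.5-fold higher was 0.224% for BMP4 minus untreated and 0.38% for BMP4 minus noggin, and the shares at least 1.5-fold lower were 0.0518% and 0.138%. Of 1753 genes whose mean level lay within 0.5 of that of Smad6, 4 were at least 1.5-fold higher with BMP4 than untreated. Smad6 itself is counted among the 1753 and among the 4. No second probe set was present to set beside it. In RNA of a whole cell population, more transcript per cell and more cells with the transcript cannot be told apart.

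The values of Smad6 also showed how coarse the deposited scale was at this level. Its value was shared, to 6 decimals, by 65 probe sets on the BMP4 array, by 51 on the noggin array and by 102 on the untreated array, itself included. Equal values on 2 arrays were common: among all probe sets above the floor, 12.3% had a BMP4 value that differed while noggin and untreated were exactly equal, the pattern of Smad6, and 24.6% were equal on all 3 arrays. The value of 0.00 for noggin minus untreated is therefore a reading on this scale and does not show that the transcript level was the same.

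Smad7, an inhibitory SMAD of both branches that recruits the Smurfs to receptors, measured 8.35 with BMP4, 8.17 with noggin and 8.003 untreated on its main probe set. The order of the arrays was BMP4, noggin, untreated, and the BMP4 value was 1.27-fold above the untreated one. The second probe set, whose suffix marks probes that may bind other transcripts as well, measured 5.52 with BMP4, 5.20 with noggin and 5.40 untreated. Here noggin was the lowest. Both probe sets were thus higher with BMP4 than without it, whereas noggin minus untreated was 0.16 on one and −0.19 on the other, a disagreement of 0.36 between probe sets. BMP4 minus noggin was 0.18 and 0.32. With Smad6, Smad7 made 2 of 9 members at least 1.2-fold higher with BMP4 than untreated, a size that 1.59% of all genes reached, and at 2-fold, which 0.0949% reached, there were 0.

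**Figure D2:**
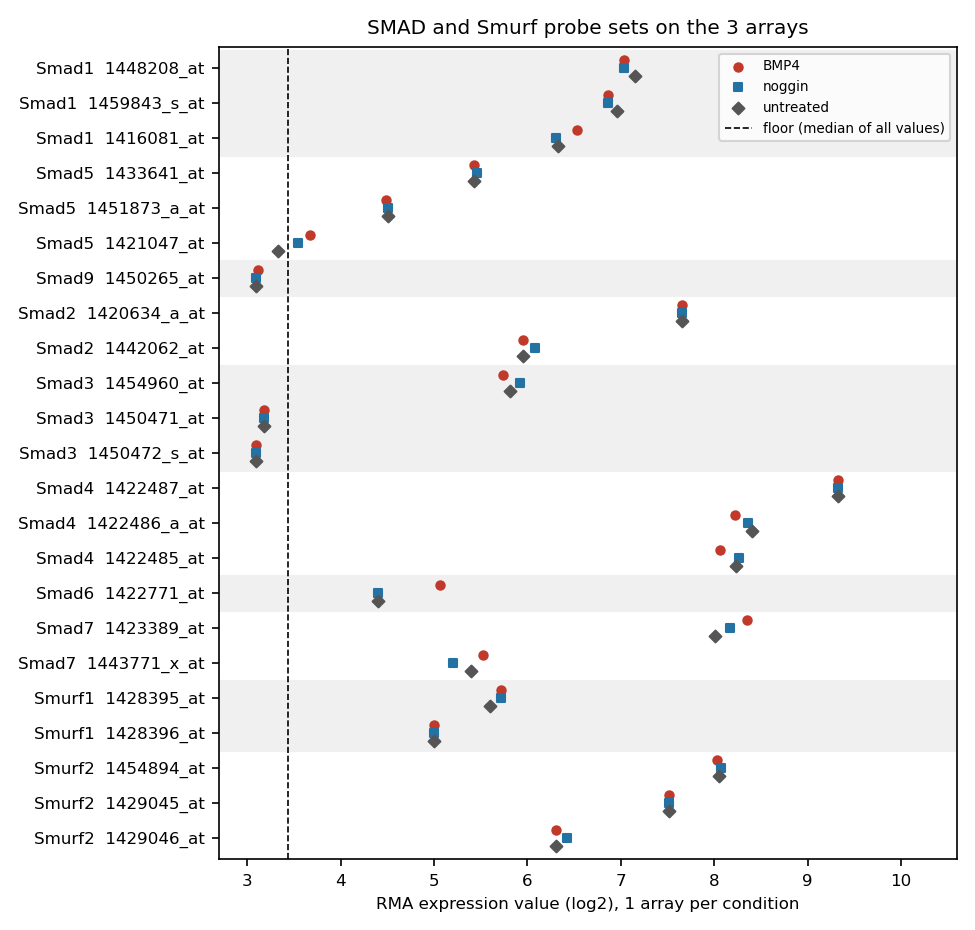
Expression values (log2) of the 23 SMAD and Smurf probe sets on the BMP4, noggin and untreated arrays, 1 array per condition, with the floor as a dashed line. For most probe sets the 3 points lie close together, and the BMP4 point of Smad6, at 5.07, stands to the right of the others at 4.40.

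The receptor-activated SMADs of the BMP branch were read by 7 probe sets. Smad1, with 3 probe sets, measured 7.03 with BMP4, 7.03 with noggin and 7.15 untreated on the probe set of highest mean. The treated arrays were equal and both lay 0.12 below the untreated array. The second probe set repeated this order, with 6.87 on both treated arrays and 6.96 untreated. The last gave 6.53 with BMP4, 6.31 with noggin and 6.32 untreated, so that BMP4 was high there by 0.20. The probe sets of Smad1 thus had opposite signs for BMP4 minus untreated, 2 below 0 and 1 above, and their average was −0.0030.

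Smad5, a close relative of Smad1 with the same role, measured 5.43 with BMP4, 5.46 with noggin and 5.43 untreated. Noggin was marginally the highest, and the second probe set, at 4.48 with BMP4 and 4.50 on the other arrays, differed by no more than 0.02. The last measured 3.67 with BMP4, 3.54 with noggin and 3.33 untreated. On that probe set both treatments were high, by 0.34 and 0.21, but its untreated value was below the floor and it passed the floor through the treated arrays alone. Smad9, the remaining receptor-activated SMAD of the branch, measured 3.12 with BMP4, 3.10 with noggin and 3.10 untreated, below the floor on every array. It is therefore counted among the 10 members but not among the 9 above the floor, and its value of 3.10 was shared by 132 probe sets on the untreated array.

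Smad2 and Smad3 carry the TGF-beta, activin and Nodal signal. Smad2 measured 7.65 on all 3 arrays, and its second probe set 5.96 with BMP4, 6.08 with noggin and 5.96 untreated. The noggin array was the highest on that probe set, by 0.12. Smad3 measured 5.74 with BMP4, 5.92 with noggin and 5.81 untreated on the only 1 of its 3 probe sets above the floor, and again noggin was the highest and BMP4 the lowest. The other probe sets of Smad3 were at 3.18 and 3.10 on every array. Over the 3 probe sets of these genes above the floor, BMP4 minus noggin was below 0 for 2, at −0.12 and −0.18, and exactly 0.00 for 1. Of all 22755 probe sets above the floor, 8524 were above 0 in this comparison, 6762 below and 7469 exactly equal.

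Smad4, the shared partner of both branches, measured 9.33 on all 3 arrays on its main probe set. The second measured 8.22 with BMP4, 8.36 with noggin and 8.40 untreated, and the last 8.06 with BMP4, 8.26 with noggin and 8.23 untreated. On these BMP4 was the lowest array, by 0.18 and 0.17 against untreated, while noggin differed from untreated by −0.04 and 0.03. Whether Smad4 is read as equal or as slightly lower with BMP4 therefore depends on the probe set, and the spread of 0.18 among its probe sets lay above the median spread of 0.10 and below the 95th percentile of 0.45 over the 5139 genes with several probe sets above the floor.

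Smurf1, first described as a ligase for SMADs of the BMP branch, measured 5.71 with BMP4, 5.71 with noggin and 5.59 untreated. Both treatments gave the same value, 0.12 above the untreated array, and the second probe set was at 5.0035 on every array. Smurf2, which acts on receptor-activated SMADs and on receptors bound to Smad7, measured 8.03 with BMP4, 8.07 with noggin and 8.05 untreated. Its second probe set was at 7.52 on every array, and its last at 6.31 with BMP4, 6.43 with noggin and 6.31 untreated. The 5 Smurf probe sets thus differed by −0.02 to 0.12 with BMP4 and by 0.00 to 0.12 with noggin, and 0 of them were past 1.5-fold.

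**Figure D3:**
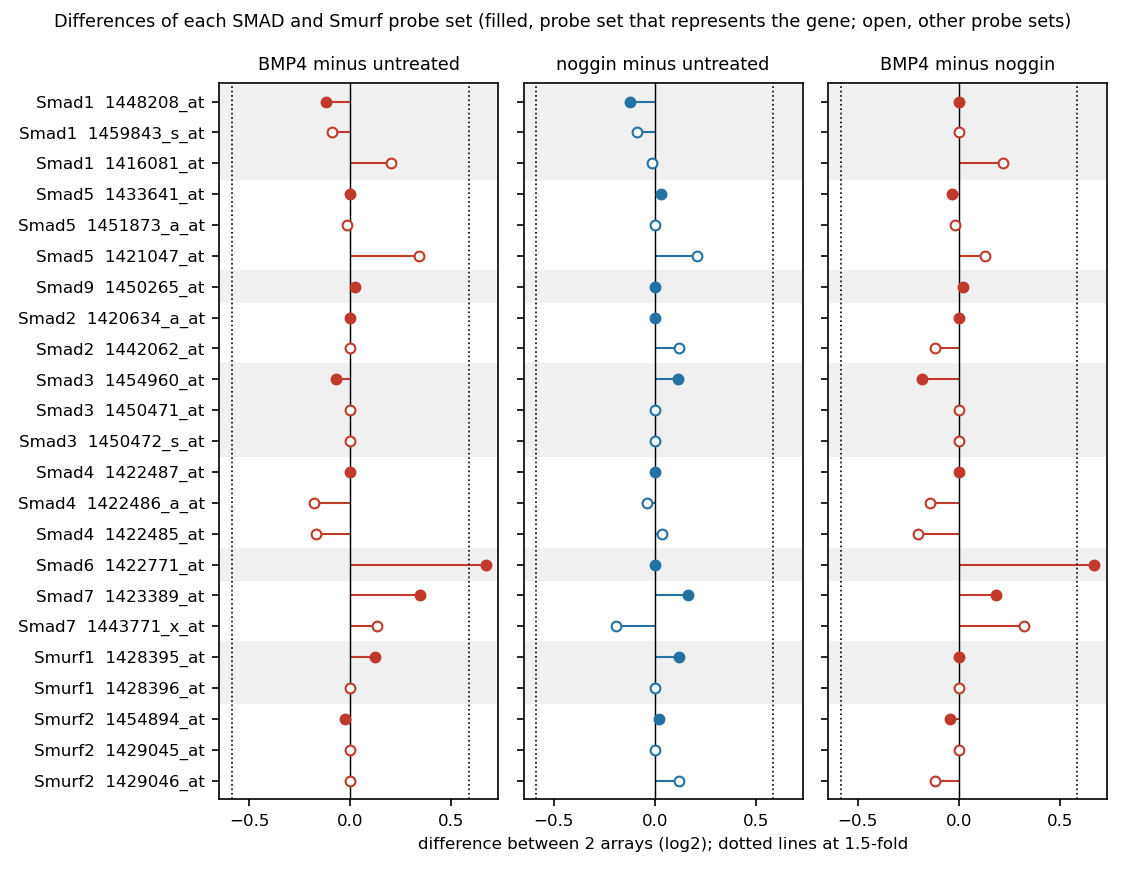
Differences (log2) of each SMAD and Smurf probe set for BMP4 minus untreated, noggin minus untreated and BMP4 minus noggin, with dotted lines at 1.5-fold. Filled points are the probe sets that represent the gene, and Smad6 is past the line in the BMP4 panels at 0.67 and at 0.00 in the noggin panel.

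By role, the 3 probe sets of the inhibitory SMADs were all higher with BMP4 than untreated, by 0.13 to 0.67. The lowest was the Smad7 probe set that may bind other transcripts, and its difference was no larger than the within-gene SD of 0.13. For the BMP-branch receptor SMADs above the floor, 2 of 6 probe sets were higher and 3 lower, between −0.12 and 0.34. Of the 2 higher, the Smad5 probe set at 0.34 passed the floor through the treated arrays alone and had to be higher there. The other was a Smad1 probe set at 0.20. For Smad2 and Smad3 the counts were 0 higher and 2 lower of 3, and for Smad4 0 higher and 2 lower of 3. For the Smurfs they were 1 higher and 1 lower of 5, and the remaining probe sets of each role were exactly equal. Of all 22755 probe sets above the floor, 6522 were higher with BMP4 than untreated, 7211 lower and 9022 exactly equal. Counted by probe set, 1 of the 20 above the floor was at least 1.5-fold higher with BMP4 than untreated, against 0.519% of all probe sets. The gene median was 0.00 for the members and 0.00 for all genes.

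With noggin, differences among the members were smaller than 1.2-fold for every gene and probe set. The differences of the 9 genes from the untreated array ran from −0.12 for Smad1 to 0.16 for Smad7. Of the 9 genes, 5 were above 0, 1 was below and 3 were exactly equal. Of all 11594 genes above the floor, 3109 were above 0, 4191 below and 4294 exactly equal. The median was 0.02 for the members against 0.00 over all genes. At 1.5-fold 0 members were higher and 0 lower, sizes that 0.00863% and 0.069% of all genes reached. Smad6, the member with the largest difference with BMP4, had the same value with noggin as without treatment. Both comparisons use the same untreated array, so that an unusual value there would enter both: for Smad1 and Smurf1 the treated arrays were equal and the untreated array alone differed, a pattern of 8.21% of all probe sets above the floor.

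**Figure D4:**
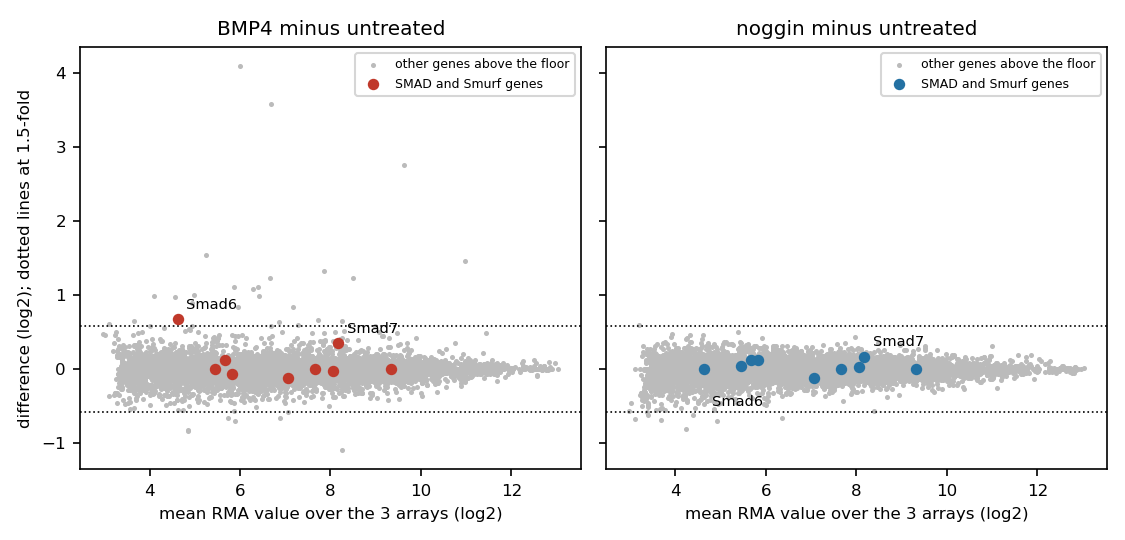
Difference (log2) against mean level (log2) over the 3 arrays for the 11594 genes above the floor (grey) and the 9 SMAD and Smurf genes among them (coloured), for BMP4 minus untreated on the left and noggin minus untreated on the right, with dotted lines at 1.5-fold. Smad6 at 0.67 lies above the line with BMP4, Smad7 at 0.34 lies below it, and all 9 lie within the lines with noggin.

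The genes nearest to Smad6 in pattern were taken by the distance over both differences from the untreated array, which rest on 3 arrays. They were Lmo2, a LIM-domain cofactor of blood development (0.65 with BMP4 and −0.03 with noggin), Edn2, the peptide ligand endothelin 2 (0.61 and −0.01), and the splicing-factor kinase gene Srpk2 (0.63 and −0.07). Skil, which encodes the SMAD co-repressor SnoN (0.57 and 0.07), and Gadd45b, a stress-response gene (0.66 and −0.12), followed. Edn2 was below the floor on the noggin and untreated arrays, at 2.90 and 2.91. Lmo2 was below the floor of 3.44 with noggin, at 3.42, and just above it untreated, at 3.45. For Smad7 the nearest were Sntb2, a syntrophin gene (0.35 and 0.17), Crtac1 (0.34 and 0.16), the histone deacetylase gene Hdac10 (0.33 and 0.16), Cys1 (0.32 and 0.15) and Setd5 (0.36 and 0.19). With so few arrays many genes have a like pattern, and nearness is a description only.

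The genes that act directly on SMADs or beside them were described from lists made for this pathway. Of 12 type I and II receptor genes, 8 were above the floor and 0 were past 1.5-fold with either treatment. With BMP4 the largest differences were 0.10 for Bmpr1a, a type I BMP receptor, and 0.03 for Tgfbr1, a TGF-beta receptor, against −0.15 for the activin receptor gene Acvr1b and −0.07 for the type II receptor gene Acvr2a. With noggin they ran from −0.03 for Acvr1b and −0.02 for Amhr2, the receptor of anti-Müllerian hormone, to 0.07 for both Acvr2b and Bmpr1a.

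Of 15 other ubiquitin ligases, deubiquitinases and adaptors, all were above the floor and 0 were past 1.5-fold. With BMP4 the extremes were Trim33, a ligase that binds Smad4 and phosphorylated Smad2 and Smad3, at −0.17, and Wwp2, a Smurf relative, at −0.04, against Nedd4, also a HECT ligase, at 0.05 and Strap, a Smad7-binding adaptor, at 0.04. For Trim33 a second probe set above the floor gave −0.15, and both probe sets were exactly equal between noggin and untreated. With noggin the extremes were Rnf111, the ligase Arkadia that degrades Smad7 and SnoN, at 0.09 and Nedd4l at 0.07, against −0.04 for Stub1 and −0.01 for Strap.

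SMAD phosphatases, anchors and nuclear envelope binders had 9 of 10 genes above the floor and 0 past 1.5-fold. With BMP4 they ran from −0.10 for Ctdsp2, a small C-terminal domain phosphatase, to 0.08 for Ctdspl. Next were −0.05 for the SMAD phosphatase gene Ppm1a and 0.05 for Lemd3, an inner nuclear membrane protein that binds SMADs. The other probe sets of Ctdsp2 gave 0.00 in every comparison. With noggin the list ran from −0.01 for Mtmr4 to 0.05 for both Ppm1a and Hgs.

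Of 15 co-repressors and co-activators 14 were above the floor, and 0 were past 1.5-fold on the probe set that represents the gene. Skil came closest, at 9.34 with BMP4, 8.83 with noggin and 8.76 untreated, a difference of 0.57 against a limit of 0.585. Its second probe set was past the limit, at 5.01 with BMP4, 4.38 with noggin and 4.18 untreated, a difference of 0.83. Both had the BMP4 array highest and the untreated array lowest. Tob2, an anti-proliferative SMAD-binding protein, was at 0.12, and the homeodomain co-repressor Tgif2 and the proto-oncogene Ski at −0.17 and −0.07. A second Tgif2 probe set above the floor had the opposite sign, at 0.06. With noggin the list ran from −0.08 for both Tgif1 and Tob2 to 0.12 for Sin3a and 0.07 for Skil. The other Tob2 probe sets gave −0.02 to 0.20 with noggin.

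Of 12 DNA-binding SMAD partners 11 had a probe set of their own, 10 of these were above the floor, and 1, Gata2, was at least 1.5-fold higher with BMP4. Gata2, a zinc finger factor, measured 5.81 with BMP4, 4.34 with noggin and 4.81 untreated, with BMP4 highest and noggin lowest. Its second probe set gave a smaller difference of 0.27. Gata6, an endoderm factor, was at 0.52 with BMP4 and the T-box gene Eomes at 0.46. A second Eomes probe set above the floor gave a smaller difference of 0.11. The member below 0 was Yy1, at −0.02. The median over the 10 was 0.13, but Mixl1, a homeobox gene, passed the floor through the BMP4 array alone, at 3.67 with BMP4 and at the floor itself, 3.44, with noggin and untreated. Over all 11 without the floor the median was 0.03, against 0.00 over all genes. For Gata6 a second probe set, at 0.90, was past 1.5-fold, but its difference for BMP4 minus noggin was 0.46, short of that limit. With noggin the list ran from −0.47 for Gata2 and −0.11 for Eomes to 0.07 for E2f4 and 0.15 for Gata6. The second probe sets above the floor gave −0.11 for Gata2, −0.07 for Eomes and 0.44 for Gata6.

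Between the BMP4 and noggin arrays, Gata2 was at least 1.5-fold higher with BMP4, with a difference of 1.46, as were 5 of the 7 BMP-SMAD response genes. In the receptor, ligase, phosphatase and co-regulator lists 0 genes were that far apart on the probe set that represents the gene. Eomes was at 0.57 and Skil at 0.50, and the second probe set of Skil was past the limit at 0.63. The second probe set of Eomes gave 0.18. That of Gata2 gave 0.38, short of the limit, with a noggin value of 3.33, below the floor. Trim33 at −0.17, Tgif2 at −0.15, Ctdsp2 at −0.13 and Acvr1b at −0.12 were the lowest of their lists. The second probe set of Tgif2 was at 0.06, and the other probe sets of Ctdsp2 were at 0.00.

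**Figure D5:**
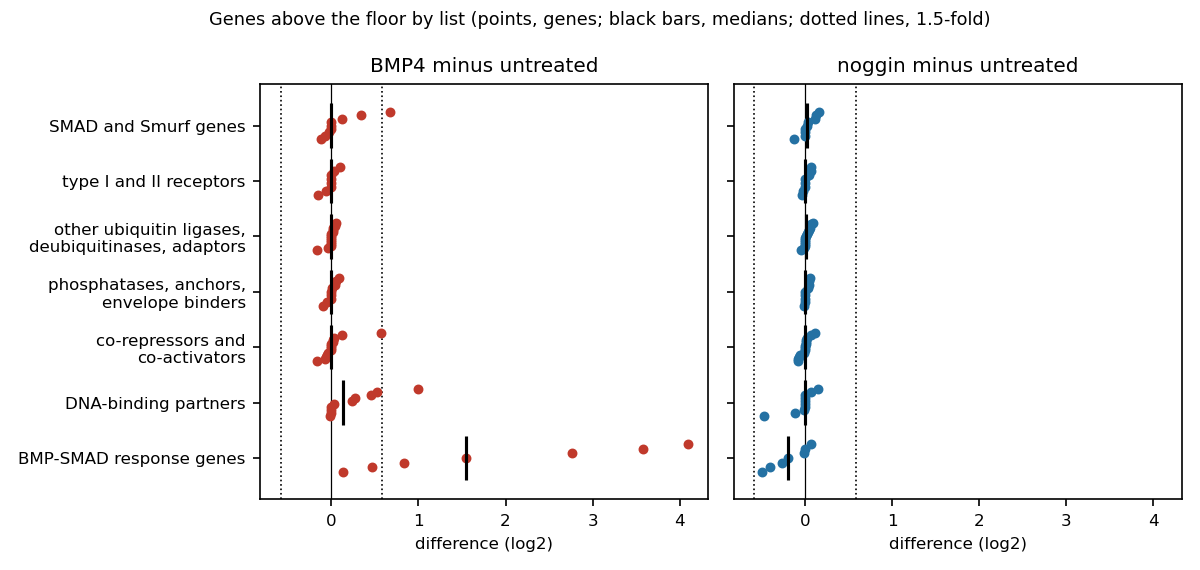
Differences (log2) from the untreated array with BMP4 (left) and noggin (right) for the genes above the floor in each list, 1 point per gene, with medians as black bars and dotted lines at 1.5-fold. The SMAD and Smurf genes, receptors, ligases and phosphatases centre on 0.00 with BMP4, and the BMP-SMAD response genes have a median of 1.54.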

How the data were processed

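Values are log2 RMA values as the authors deposited them, 1 per probe set and array, per the submitters' processing notes. The version and settings of RMA are not given in the sources used here. RMA corrects the background, quantile-normalizes the arrays and combines probes by median polish. Many deposited values were exactly shared between probe sets of 1 array, and the arrays' distributions were not identical; the reason for either was not tested. The number of arrays, 1 per condition and 3 in all, limits the precision: neither an SD between samples nor a p-value or interval is given.

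The platform annotation gave the gene of each probe set, and 34741 of the 34945 paired with 1 symbol matched RefSeq genes (GRCm38.p6, used for names). A gene was represented by its probe set of highest mean over the arrays and kept if its highest value exceeded the floor. Values were used as deposited, and equal means equal to 6 decimals. The named genes were all members, the list genes past 1.5-fold and the 2 with the largest differences from untreated in each direction, and the 5 genes nearest to Smad6 and Smad7 by Euclidean distance, leaving out clone names. The members and lists were chosen with earlier results of these data known. Gene symbols such as Runx2 without a probe set of their own were left out. The alternatives were other representatives, floors, centring, loess (span 0.3) and size limits. The arithmetic and the motif search were tested on simulated data. Python 3.11.15 with pandas 2.3.3 and statsmodels 0.14.6 was used.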

Additional observations from a re-analysis of the deposited data

How the results depend on the processing

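Smad6 has 1 probe set, so that other representatives could not move it, and the median of all genes was 0.00 in every comparison, so that centring could move no value. After loess its difference was 0.67 for BMP4 minus untreated and for BMP4 minus noggin. For Smad7, BMP4 minus untreated ranged from 0.24 to 0.35, and noggin minus untreated from −0.01, with the mean or median over its probe sets, to 0.17. The median over the members stayed between −0.0004 and 0.0032 for BMP4 minus untreated, between 0.02 and 0.04 for noggin minus untreated, and between −0.02 and 0.0031 for BMP4 minus noggin. A value counted as moved when it shifted by at least the within-gene SD, and 4 of 135 single-gene values did, while 68 were exactly as reported. The 4 were Smad4 at −0.17 for BMP4 minus untreated by the median over its probe sets, Smad2 at 0.12 for noggin minus untreated on plain-suffix probe sets, and Smad7 by mean and median, as given. Plain-suffix probe sets could move Smad2 alone, since the other members above the floor were already represented by one. Many of the unchanged values were thus fixed in advance, and the count of moved values does not measure stability.

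The count of members past 1.5-fold, 1 for BMP4 minus untreated and 1 for BMP4 minus noggin, became 0 in both at a 2-fold limit and when the floor was raised to 6.04, the 75th percentile, which leaves out Smad6 and keeps 5 members. At 1.2-fold it was 2 for BMP4 minus untreated. With no floor, with all 3 arrays above the floor, with probe sets averaged and after loess it did not change, and for noggin minus untreated it was 0 throughout. Chosen after seeing the data, the median of the DNA-binding partners without a floor was 0.03 for BMP4 minus untreated, against 0.13. No paired analysis was possible because each condition had 1 array.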

Other observations

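Smad3 and Smad6 are neighbouring protein-coding genes on mouse chromosome 9. Between them RefSeq lists 5 entries, long non-coding RNAs and pseudogenes, and none of the 5 had a probe set above the floor here. BMP4 minus untreated was −0.07 for Smad3, within the scatter among probe sets of a gene, and 0.67 for Smad6.

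Among the BMP receptors, 5 probe sets of Bmpr1a were above the floor. Of these, 1 passed it through the BMP4 array alone, at 3.505 with BMP4, 3.34 with noggin and 3.34 untreated, and had to be higher there. The other 4 differed by 0.06 to 0.33 for BMP4 minus untreated and by 0.00 to 0.12 for noggin minus untreated. The probe set with 0.33 measured 6.44 with BMP4, 6.18 with noggin and 6.11 untreated, and the one that represents the gene gave 0.10.

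The deposited values fell on a limited set of numbers. The 45101 probe sets took 15626 distinct values with BMP4, 18542 with noggin and 14934 untreated. The most common value was shared by 695 probe sets with BMP4, 576 with noggin and 691 untreated. Of values at or below the floor, 81.7% with BMP4, 74.2% with noggin and 81.3% untreated were shared with another probe set. Of those above it, 57.9% with BMP4, 55.4% with noggin and 62% untreated were shared. The values of Smad9 and of 2 probe sets of Smad3 lay among the shared ones on the untreated array.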
